A study of Mus musculus with 12 samples.

Results

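The genes of the proteasome, the cell's main protein-degrading machine, were followed in 12 whole-kidney RNA-seq libraries of mice. Members were the protein-coding mouse genes whose symbol starts with Psma, Psmb, Psmc, Psmd, Psme or Psmg and whose mean level over the 12 libraries was at least 1 CPM (counts scaled to the size of the library, so that libraries can be compared). Of 38924 gene IDs in the files, 49 protein-coding genes carried such a symbol and 47 passed the level rule. The remaining pair, Psma8 (an alpha subunit of the testis) and Psmb11 (a beta subunit of thymic epithelium), had means of 0.288 and 0 CPM. By role, the 47 genes comprised 7 of the alpha ring and 7 of the constitutive beta ring of the 20S core, 3 inducible beta subunits, 6 ATPases and 11 non-ATPase subunits of the 19S particle, 3 assembly chaperones of the 19S particle, 4 of the core, and 5 activators. The last member, Psmc3ip, matches the prefix by name but encodes a meiotic recombination factor and no proteasome subunit.

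The proteasome is a barrel of stacked rings. Outer rings of alpha subunits gate the entrance, and inner rings of beta subunits carry the proteolytic sites. The 19S particle caps the barrel, binds ubiquitin-tagged proteins, removes the tag and uses a ring of ATPases to unfold and feed the substrate into the core. Interferon replaces the catalytic beta subunits by inducible ones, which favours peptides for antigen presentation, and the activators of the PA28 and PA200 families open the core independently of the 19S particle. When proteasome activity is short, the membrane-bound transcription factor NRF1, encoded by Nfe2l1, is released and switches on subunit genes through antioxidant response elements in their promoters.

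The series compared wild-type (WT) littermates with mice that lack Arntl, the gene of the clock activator BMAL1, in renal tubule cells (KO), on a C57BL/6J background. The knockout mice were Bmal1lox/lox/Pax8-rtTA/LC1, in which the Pax8 promoter drives a doxycycline-responsive factor that turns on Cre recombinase in tubule cells. Doxycycline was given at 2 mg/ml in the drinking water for 2 weeks from 8 weeks of age, and the labels do not state which alleles the littermates carried or whether they drank doxycycline. Kidneys were taken at zeitgeber time 4 (ZT4, 4 h into the light phase) or ZT16 (4 h into the dark phase) under 12 h light and 12 h dark. There were 3 libraries in each of the 4 groups, WT ZT4 (replicates 1, 3 and 5), KO ZT4 (2, 4 and 6), WT ZT16 (1, 3 and 5) and KO ZT16 (2, 4 and 6). Below, the 3 values of a group are given in this replicate order. Whether each library is a separate animal is not stated in the labels. The p-values therefore refer to variation among libraries, and some of it may be technical.

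Gene-assigned counts ranged from 25628887 to 38043491 per library, with 19624 to 20558 genes detected. The 4 proximal tubule markers summed to between 6469 and 9196 CPM, as fits kidney. Arntl, counted over the whole gene, did not check the genotype labels: it stood at 13.8 to 20.01 CPM in WT ZT4, 14.4 to 16.2 in KO ZT4, 8.63 to 11.0 in WT ZT16 and 12.3 to 15 in KO ZT16. At ZT16 every library labelled KO lay above every library labelled WT, so whole-gene counts showed no loss of Arntl there. The reason was not tested, and every genotype direction below rests on the labels alone: WT and KO stand for the libraries so labelled. KO ZT16 replicate 2 stood apart from the other KO ZT16 libraries. Mitochondrially encoded genes took 22.3% of its counts against 14.1% and 14.0% in replicates 4 and 6, a share close to the 22.4% of WT ZT16 replicate 5. Mitochondrial shares were 16.3% to 18.0% in WT ZT4, 12.6% to 12.8% in KO ZT4 and 18.7% and 18.8% in the other WT ZT16 libraries. The counts of members called, and the called genes of other lists, are given with and without it below.

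Promoter sequences are shown for 5 members, some of them picked for a motif. The printed windows therefore do not show how often the motifs occur among the members. Psmc4 and Psmd12 were called lower in KO over both times. The catalytic subunits Psmb5 and Psmb6 have an antioxidant response element core and were called in no comparison with all libraries. The activator Psme3 had group means that ran the opposite way, without being called with all libraries. Its promoter holds an E-box, the element bound by BMAL1 with CLOCK. Sequences are from RefSeq on GRCm38.p6 and were found for 40 of the 47 members. Those printed cover only bases upstream of the annotated gene. They run 5′ to 3′ on the gene's strand, and capitals mark CACGTG (E-box) or TGACNNNGC (antioxidant response element core) on either strand. Their positions are chr7:28050102-28050342 on the minus strand for Psmc4, chr11:107479278-107479483 on the plus strand for Psmd12, chr14:54618023-54618245 on the minus strand for Psmb5, chr11:70525107-70525356 on the plus strand for Psmb6 and chr11:101315963-101316212 on the plus strand for Psme3. None of these windows overlaps an exon of another annotated gene.
Psmc4: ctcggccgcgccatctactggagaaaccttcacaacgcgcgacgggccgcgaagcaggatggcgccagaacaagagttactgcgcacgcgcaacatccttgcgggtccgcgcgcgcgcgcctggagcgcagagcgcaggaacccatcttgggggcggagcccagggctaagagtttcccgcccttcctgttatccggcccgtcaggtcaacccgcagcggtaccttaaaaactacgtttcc
Psmd12: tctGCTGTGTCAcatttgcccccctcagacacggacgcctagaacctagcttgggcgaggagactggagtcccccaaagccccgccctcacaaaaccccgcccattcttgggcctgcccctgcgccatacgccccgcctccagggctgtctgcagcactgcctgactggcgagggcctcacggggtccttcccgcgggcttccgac
Psmb5: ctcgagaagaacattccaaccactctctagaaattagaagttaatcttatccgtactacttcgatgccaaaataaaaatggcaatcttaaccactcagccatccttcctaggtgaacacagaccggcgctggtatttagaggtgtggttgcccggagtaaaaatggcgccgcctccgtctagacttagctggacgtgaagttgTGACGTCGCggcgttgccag
Psmb6: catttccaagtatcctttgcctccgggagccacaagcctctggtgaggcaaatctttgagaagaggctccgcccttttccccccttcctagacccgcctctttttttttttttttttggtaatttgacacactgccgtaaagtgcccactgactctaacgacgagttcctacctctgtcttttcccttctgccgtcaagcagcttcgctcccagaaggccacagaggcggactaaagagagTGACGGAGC
Psme3: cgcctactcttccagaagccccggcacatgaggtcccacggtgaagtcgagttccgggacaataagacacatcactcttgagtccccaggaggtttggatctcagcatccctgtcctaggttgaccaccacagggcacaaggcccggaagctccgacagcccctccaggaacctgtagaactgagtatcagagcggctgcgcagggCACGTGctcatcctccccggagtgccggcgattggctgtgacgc

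The printed antioxidant response element core is TGACGTCGC in Psmb5, 47 to 39 bases before the RefSeq start, TGACGGAGC in Psmb6, 9 to 1 bases before it, and GCTGTGTCA, a match on the other strand, in Psmd12, 247 to 239 bases before it. The E-box of Psme3 lies 44 to 39 bases before its start, and neither motif was found in the window of Psmc4. Over the 250 bases upstream of each start, the antioxidant response element core was found in 5 of 40 members (12.5%) against 11.5% of all 27025 genes with an entry. The E-box was found in 4 of 40 (10%) against 6.86% of all genes, the CCAAT box (CCAAT) in 14 (35.0%) against 37.5%, and the core of the interferon-stimulated response element in 3 (7.5%) against 3.46%. Beyond the printed genes, Psmc6 held the antioxidant response element core, Psma4 and Psmb10 held the E-box, and Psmd9 held both. The searched windows of Psmb8, Psmb9, Psmd5, Psmd9, Psmd13 and Psme1 lay inside their annotated genes, because the RefSeq start lies within the gene. Both matches of Psmd9 are thus not upstream of its annotated gene. The 4 members with an E-box did not share a direction between the genotypes. At ZT4 the log2 fold changes of KO against WT were 0.18 (Psme3), -0.33 (Psma4), -0.25 (Psmb10) and -0.01 (Psmd9), none of them called. A link between the E-box and these values was not tested. All motifs were searched on both strands, and matches are descriptions of these letters only.

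Per kilobase (kb) of exon, levels were set side by side for the 31 members that share under 10% of their 50-base words with another transcript, since reads of the others can be lost to or gained from copies. Exon length here merged all annotated exons of a gene, which can be longer than its transcript. It was 1872 bases for Psmb6 and 1234 for Psma6, where the longest protein-coding transcripts have 798 and 1042 bases. The order of genes given here holds for merged exon length only. By this length, the core and the ATPases stood highest. The highest level was that of the alpha subunit Psma6, with 81.0 CPM per kb, followed by the beta subunit Psmb4 (74.3), the ATPase Psmc5 (73.3), the caspase-like catalytic subunit Psmb6 (70.2) and the ATPase Psmc3 (69.7). The lowest ATPase was Psmc2 (20.6 CPM per kb), and the lowest of the 4 alpha and 4 beta subunits in this comparison were Psma2 (28.4) and Psmb1 (26.3). Non-ATPase subunits lay between 15.3 (Psmd1, the scaffold of the base) and 44.4 CPM per kb (Psmd8, a lid subunit). Chaperones were lower, from 3.96 (Psmd9) to 20.96 CPM per kb (Psmd10) for the 19S particle and from 8.03 (Psmg4) to 18.9 (Psmg1) for the core. The inducible subunits Psmb8 and Psmb10 had 2.95 and 7.60 CPM per kb, and the activators Psme3 and Psme4 had 19.2 and 24.6.

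**Figure D1:**
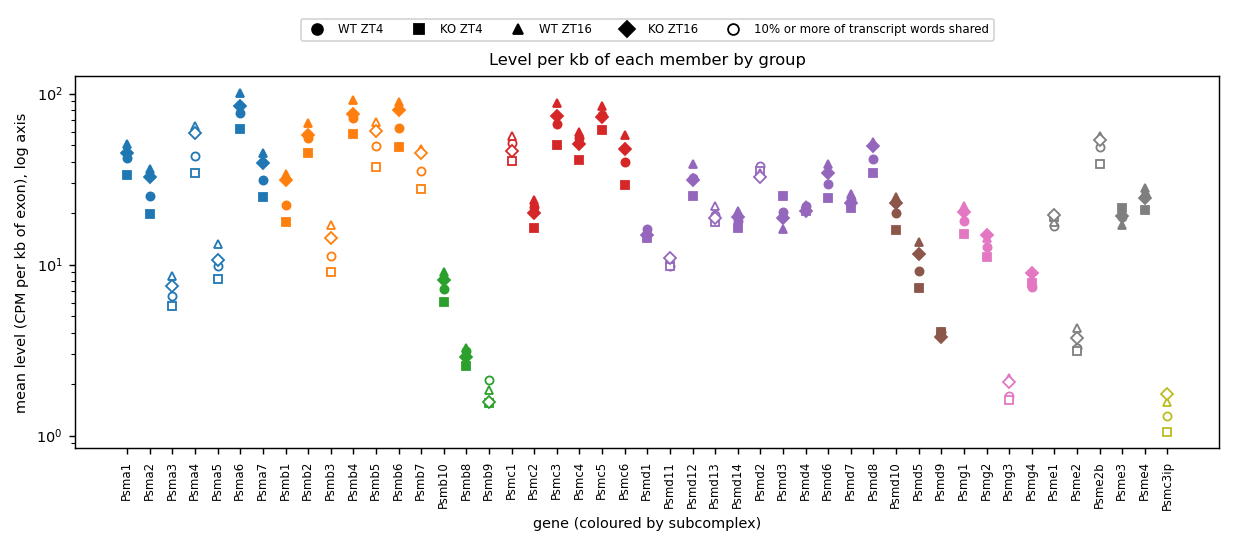
Mean level of each of the 47 members in the 4 groups, in CPM per kb of exon on a log axis, coloured by subcomplex; marker shapes are groups and open markers are members with 10% or more of their 50-base words in another transcript. The inducible subunits Psmb8 (2.95 over all libraries) and Psmb10 (7.60) lie far below Psma6 (81.0) and Psmb4 (74.3).

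The other 16 members, and some with antisense neighbours, are uncertain in level. Psme2 and Psme2b, 2 genes of the PA28 beta subunit, share 59.3% and 69.3% of their words, mainly with each other, so their counts cannot be separated cleanly. Psmb5, Psmb3 and Psma5 share 57.1%, 55.8% and 55.4%, in part with pseudogenes, and Psma4 and Psmd2 share 31.5% and 26.4%. Psmb7 and Psmc3ip overlap exons of Nek6 and Mlx on the opposite strand over 11.8% and 21.2% of their exonic bases. Psmd9 shares 25.5% with the opposite-strand gene Gm26745, Psmb8 14.7% with Gm20496 and Psmd13 10.1% with Sirt3. The libraries were stranded but no strand setting is given for the counting, so reads of such pairs cannot be told apart.

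Among the subcomplexes, levels varied most between libraries in the constitutive beta ring. The ratio of a member's highest to its lowest library had a median of 2.46 there. It was 2.04 in the 19S assembly chaperones, 1.91 in the alpha ring, 1.86 in the inducible subunits and 1.75 in the core chaperones. The lowest medians were 1.56 in the ATPases, 1.54 in the activators and 1.42 in the non-ATPase subunits. Psmd9, an assembly chaperone, varied least (1.15-fold) and Psmb1, a beta subunit, most (2.83-fold). KO ZT16 replicate 2 held the highest value of 24 of the 47 members and WT ZT16 replicate 5 that of 12, while the 3 KO ZT4 libraries held the lowest value of 9, 20 and 9.

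**Figure D2:**
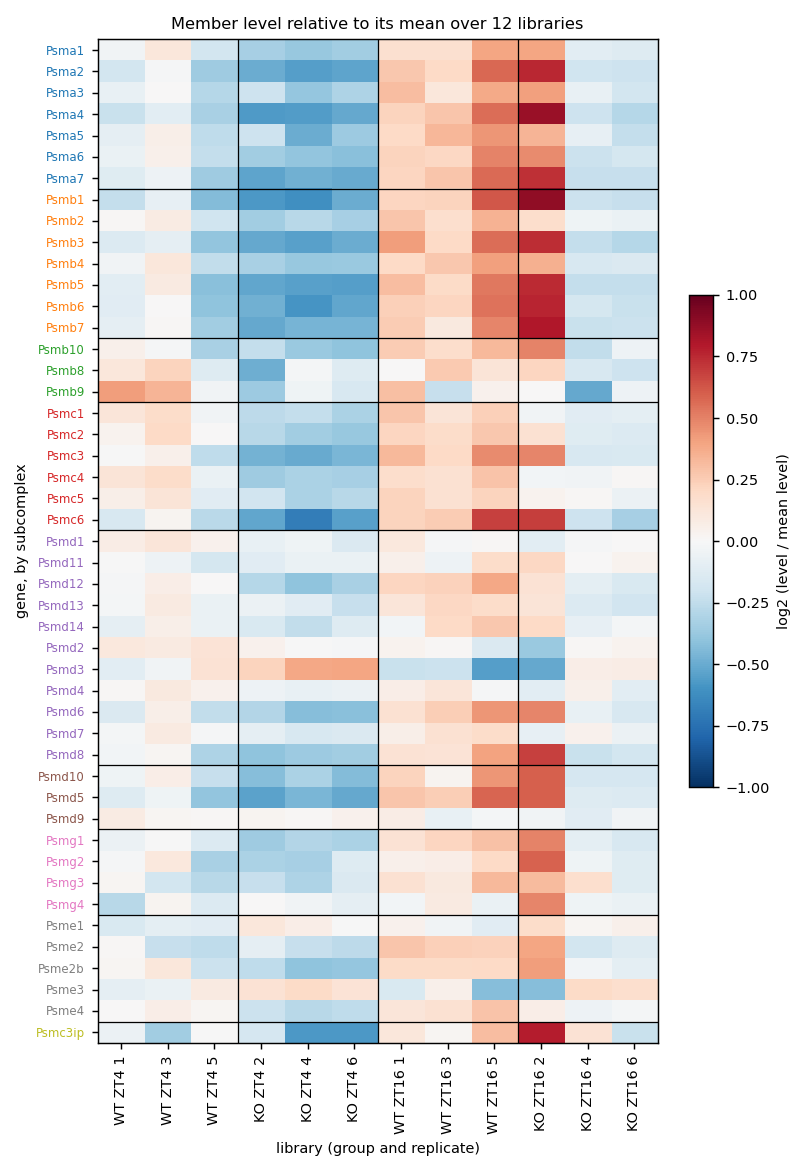
Level of each member (rows, by subcomplex) in each of the 12 libraries (columns) relative to the member's mean, as log2 ratios from -1 (blue) to 1 (red). The KO ZT4 libraries are lowest and KO ZT16 replicate 2 and WT ZT16 replicate 5 highest for most core subunits, and Psmd3 runs the opposite way.

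The summed level of all 47 members was 3450, 3676 and 3170 CPM in WT ZT4 and 2904, 2854 and 2873 CPM in KO ZT4. At ZT16 it was 4014, 3965 and 4517 CPM in WT and 4632, 3295 and 3266 CPM in KO. The KO libraries thus lay below all WT libraries of the same time except KO ZT16 replicate 2, which was the highest of all 12. The 2 highest sums were those of the 2 libraries with the highest mitochondrial shares and the 3 lowest sums those of the 3 with the lowest; the part of this in the results was not tested. In whole tissue, fewer cells of a type and less RNA per cell cannot be told apart. The summed level of 2 markers of the thick ascending limb, Umod and Slc12a1, also differed between the groups. At ZT4 it was 5261 to 5847 CPM in WT and 4329 to 4469 in KO. At ZT16 it was 6162 to 7531 CPM in WT and 5293 to 6791 in KO. Between the genotypes the 2 markers went opposite ways. Mean Umod was 4339 CPM in WT ZT4 and 2962 in KO ZT4, and 5766 in WT ZT16 and 4442 in KO ZT16. Mean Slc12a1 was 1252 CPM in WT ZT4 and 1450 in KO ZT4, and 1302 in WT ZT16 and 1423 in KO ZT16. The part of these cells in the results was not tested.

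**Figure D3:**
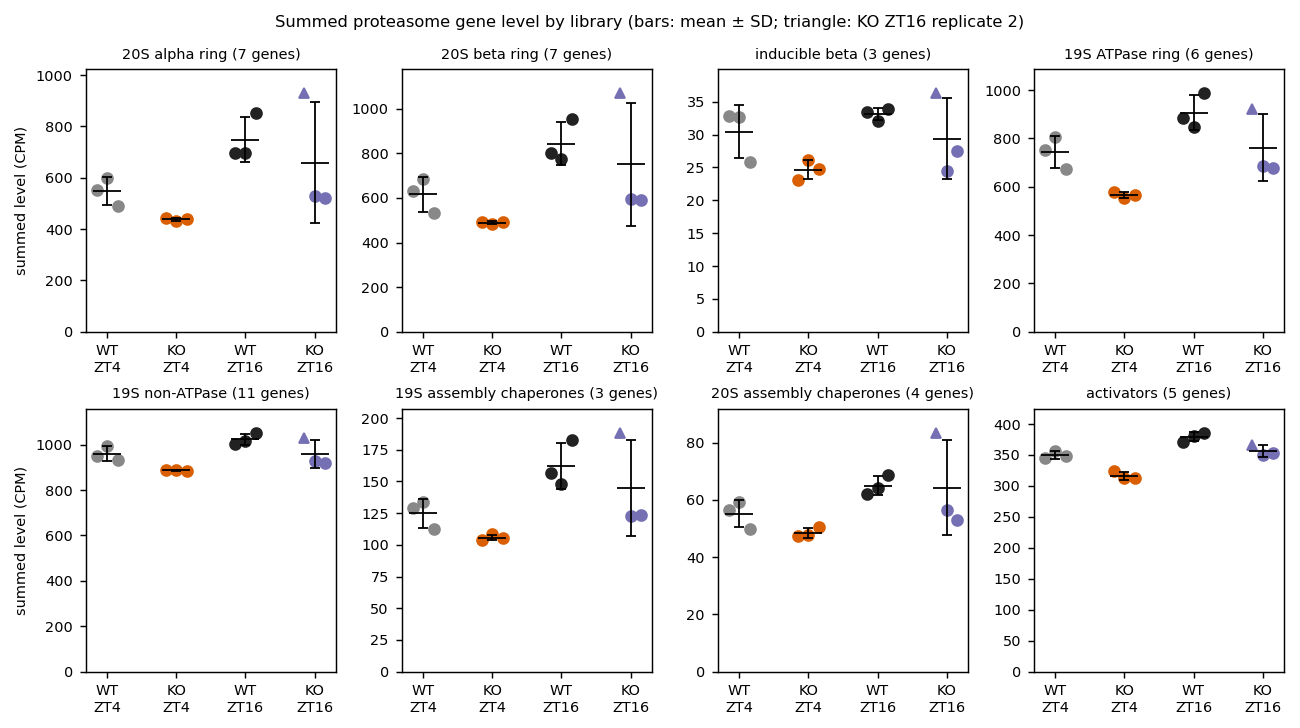
Summed level (CPM, axes from 0) of the members of each subcomplex in every library by group, with the group mean and SD (n = 3); the triangle is KO ZT16 replicate 2. In the 20S beta ring, KO ZT4 libraries lie at 483 to 493 CPM and WT ZT4 libraries at 533 to 687 CPM.

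At ZT4 the comparison of KO with WT asks what loss of tubular BMAL1 goes with in the light phase. All members but 4 had lower group means in KO, and 3 ATPases of the 19S particle fell: Psmc4, Psmc1 and Psmc2. Over all 47 members 3 were called lower and 0 higher at adjusted p under 0.05 (edgeR quasi-likelihood test, Benjamini-Hochberg over 16150 genes), which is 6.38% of members against 3.29% of all genes in either direction and 1.66% lower. The median log2 fold change of the members was -0.29, against 0.00 for all genes, and 43 members were negative, where 49.7% of all genes were. In 32 members every KO library lay below every WT library and in 3 above, against 18.4% and 19.3% of all genes.

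Among the ATPases, which form the unfolding ring, Psmc4 stood at 122, 127 and 107 CPM in WT ZT4 and at 87.2, 89.2 and 88.4 CPM in KO ZT4. Psmc1 stood at 102, 106 and 91.4 CPM in WT ZT4 and at 78.0, 79.5 and 75.3 CPM in KO ZT4. For Psmc2 the levels were 106, 119 and 104 CPM in WT ZT4 against 85.2, 81.4 and 79.7 CPM in KO ZT4. In all 3 genes the KO libraries lay below the WT libraries without overlap. The log2 fold changes were -0.42 ± 0.078 (SE, adjusted p = 0.0114) for Psmc4, -0.36 ± 0.078 (0.0249) for Psmc1 and -0.42 ± 0.091 (0.0281) for Psmc2 by edgeR's quasi-likelihood test. The other ATPases had the same sign and no overlap between groups but were not called: Psmc3 -0.41 ± 0.16 (0.189), Psmc5 -0.29 ± 0.078 (0.0691) and Psmc6 -0.46 ± 0.23 (0.306).

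In the 20S core no subunit was called at ZT4. The 7 alpha subunits had log2 fold changes from -0.35 (Psma2) to -0.19 (Psma3), with KO libraries below all WT libraries in 5. The 7 constitutive beta subunits had -0.41 (Psmb5, the chymotrypsin-like catalytic subunit) to -0.29 (Psmb2), with no overlap in any. Psmb5 was at 44.9, 51.3 and 36.0 CPM in WT ZT4 and at 33.7, 33.2 and 33.0 CPM in KO ZT4, with adjusted p = 0.358 by edgeR. The WT libraries of Psmb5 spread more widely than the KO libraries.

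Among the 11 non-ATPase subunits, which form the scaffold and lid of the 19S particle, 10 had negative values and none was called at ZT4. Psmd12, a scaffold subunit of the lid, stood at 83.5, 88.3 and 84.5 CPM in WT ZT4 and at 69.3, 63.8 and 67.3 CPM in KO ZT4, a log2 fold change of -0.35 ± 0.089 (adjusted p = 0.0527, edgeR). Psmd3, another lid subunit, had the opposite sign, with 92.9, 97.6 and 110.0 CPM in WT ZT4 and 116, 130.4 and 131 CPM in KO ZT4. Its KO libraries lay above all WT libraries, with a log2 fold change of 0.33 ± 0.15 (adjusted p = 0.260). The assembly chaperones Psmd10 and Psmd5 were at -0.33 ± 0.19 and -0.32 ± 0.18, and Psmd9 at -0.01 ± 0.071, none of them called. The chaperones of the core ran from -0.26 (Psmg1) to 0.09 (Psmg4).

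The activators did not share 1 direction at ZT4. Psme4, which encodes PA200, was at 207, 215 and 209 CPM in WT ZT4 and at 178, 169.9 and 173 CPM in KO ZT4, a log2 fold change of -0.28 ± 0.072 (adjusted p = 0.0583, edgeR). Psme1, the alpha subunit of PA28, was at 36.2, 37.5 and 37.3 CPM in WT ZT4 and at 43.5, 42.2 and 40.2 CPM in KO ZT4, a log2 fold change of 0.18 ± 0.076 (adjusted p = 0.234). Psme3, the nuclear PA28 gamma, was at 52.9, 54.0 and 60.2 CPM against 62.4, 64.6 and 62.0 CPM, a log2 fold change of 0.18 ± 0.15 (adjusted p = 0.544). Values of Psme1 and Psme3 were thus higher in every KO library than in any WT library and those of Psme4 lower. Psme2 was at -0.04 ± 0.15 and Psme2b at -0.33 ± 0.13.

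The 3 calls at ZT4 rest on most of its libraries. None was made without WT ZT4 replicate 1 or 3, against 1.52% and 1.41% of all genes. None was made without KO ZT4 replicate 2, 4 or 6, against 1.54%, 1.4% and 1.45% of all genes. Without WT ZT4 replicate 5, 4 were made, against 2.25% of all genes. Without KO ZT16 replicate 2, which belongs to neither group compared but enters the shared estimate of spread and the choice of genes tested, 24 members were called (23 lower and 1 higher) against 15.3% of all genes. These included all 6 ATPases, 5 of 7 alpha and 6 of 7 beta subunits, and Psmd3 as the higher one (log2 fold change 0.33, adjusted p = 0.0293). The rest were lower members of other roles.

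At ZT16, in the dark phase, KO and WT differed in no member past the threshold with all libraries. By edgeR 0 of 47 were called against 4.03% of all genes, 9 were under an unadjusted p of 0.05 (16% of all genes were), and DESeq2 called 2. The median log2 fold change was -0.17 (0.02 for all genes), 40 members were negative (46.8% of all genes were), and 7 had KO libraries below all WT libraries against 7.95% of all genes. Those 7 were Psmc1, Psmc2, Psmc4, Psmc5, Psmd7, Psmd12 and Psme4. Psmc1 stood at 113, 102 and 111 CPM in WT ZT16 and at 91.7, 86.6 and 87.8 CPM in KO ZT16, with a log2 fold change of -0.30 ± 0.077 (adjusted p = 0.056). Psmd12 stood at 98.0, 99.2 and 110.4 CPM against 93.3, 79.0 and 75.8 CPM, with -0.31 ± 0.089 (adjusted p = 0.0836). Psmc4 stood at 126, 124 and 136 CPM against 109, 109 and 112 CPM, with -0.22 ± 0.078 (adjusted p = 0.164). These 3 genes did not overlap between the genotypes, and the largest spread was that of KO in Psmd12. The ATPases ended at -0.20 for Psmc5 and the non-ATPase subunits at 0.22 for Psmd3. Alpha subunits ran from -0.30 (Psma5) to -0.14 (Psma4) and beta subunits from -0.26 (Psmb4) to -0.08 (Psmb7). The 19S chaperones ran from -0.22 (Psmd5) to -0.05 (Psmd9), the core chaperones from -0.11 (Psmg1) to 0.15 (Psmg4), and the activators from -0.20 (Psme2) to 0.17 (Psme3), with Psme1 at 0.12.

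The core subunits at ZT16 turned on 1 library. Psmb1, a beta subunit, stood at 140.1, 141 and 185 CPM in WT ZT16 and at 224, 104 and 103 CPM in KO ZT16. Psma4, an alpha subunit, stood at 139, 143 and 175 CPM against 215, 103 and 97.5 CPM. In both genes KO replicate 2 was the highest of the 6 libraries and the other KO libraries were the lowest. Without KO ZT16 replicate 2, 33 members were called (31 lower and 2 higher) against 31.2% of all genes, namely all 7 alpha, 7 constitutive beta and 6 ATPase subunits, 1 of 3 inducible subunits, 5 of 11 non-ATPase subunits, 3 of 7 chaperones and 4 of 5 activators. The median over all members was then -0.36, that of the beta ring -0.55 and that of the alpha ring -0.52. The higher ones were Psmd3 (0.38 ± 0.10, adjusted p = 0.0134) and Psme3 (0.33 ± 0.11, adjusted p = 0.034). With only 2 KO libraries left, the KO mean rests on these 2, and its SE and p-value on a spread estimated together with the other groups.

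**Figure D4:**
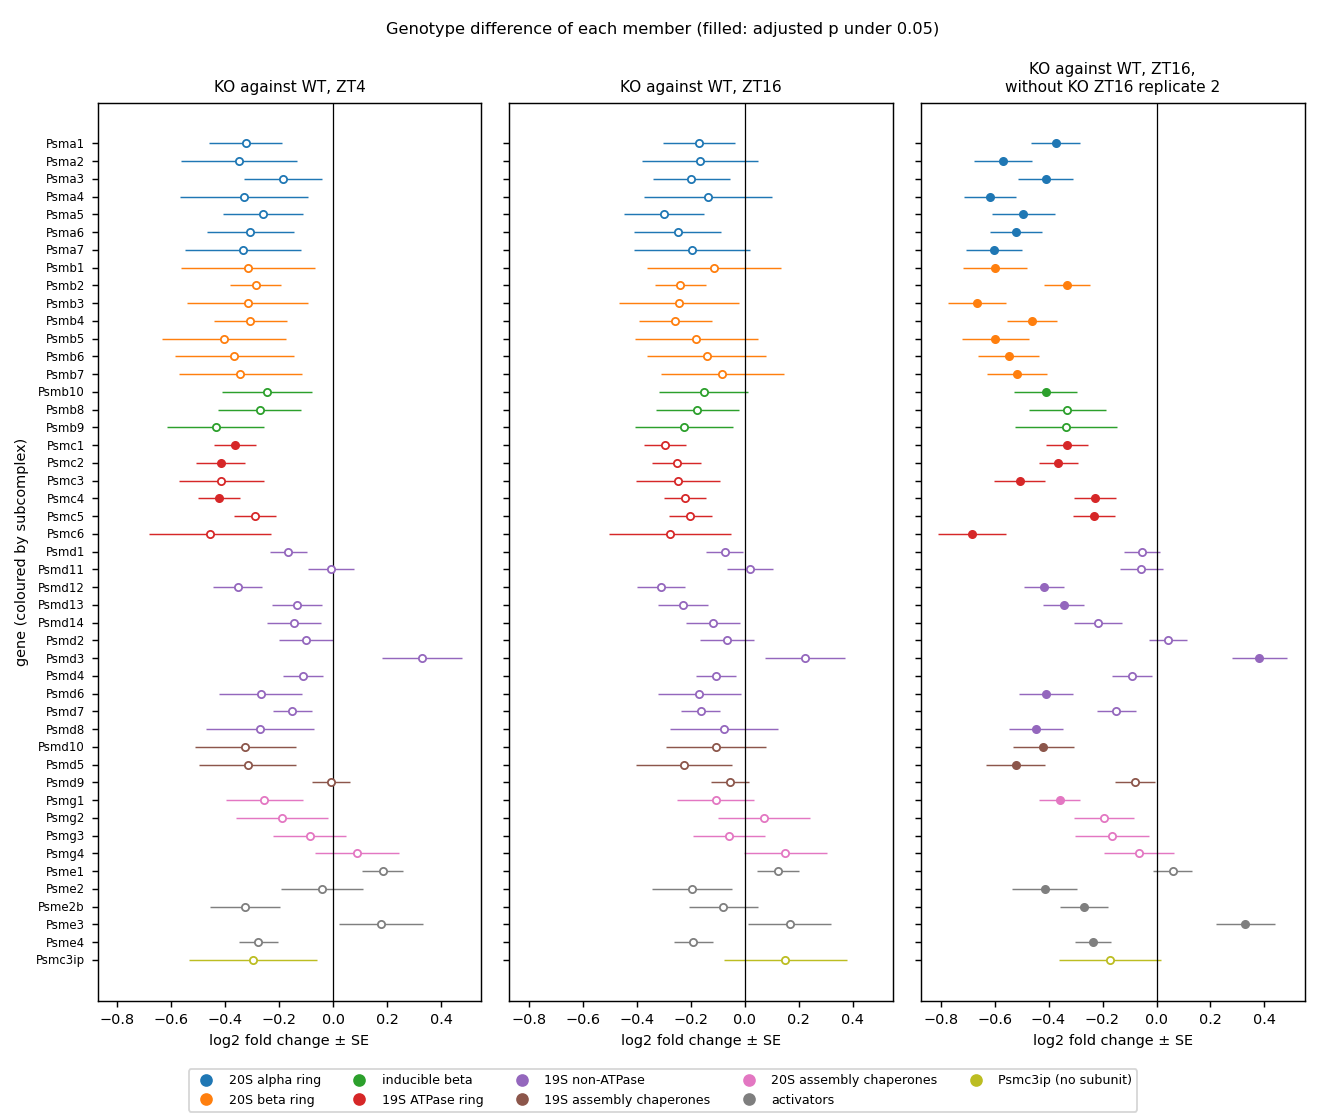
Log2 fold change of KO against WT (± SE) for each member at ZT4, at ZT16 and at ZT16 without KO ZT16 replicate 2, coloured by subcomplex; filled points have adjusted p under 0.05. Of the 47 points 3, 0 and 33 are filled, and Psmd3, Psme1 and Psme3 lie to the right of 0 in all panels.

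Averaged over both times, 7 of 47 members fell in KO and 0 rose, or 14.9% of members against 11.4% of all genes in either direction and 5.31% lower. The ATPases Psmc1 (-0.33 ± 0.055, adjusted p = 0.00224), Psmc4 (-0.32 ± 0.055, 0.00267), Psmc2 (-0.33 ± 0.065, 0.00583) and Psmc5 (-0.25 ± 0.055, 0.0148) made up most of them by edgeR. They were joined by the lid subunit Psmd12 (-0.33 ± 0.063, 0.00537), the activator Psme4 (-0.23 ± 0.051, 0.0117) and the beta subunit Psmb2 (-0.26 ± 0.067, 0.0248). The members' median was -0.22, and 42 members were negative, where 48.6% of all genes were. Of the 5 positive ones Psmd3 had the largest value (0.28 ± 0.11, adjusted p = 0.109). In the levels behind these calls, Psme4 stood at 207, 215 and 209 CPM in WT ZT4, 178, 169.9 and 173 in KO ZT4, 224, 229 and 251 in WT ZT16 and 216, 199 and 203 in KO ZT16. Psmc5, in the same order, stood at 106, 112 and 94.4 CPM, 89.5, 82.0 and 84.2, 119, 114 and 119, and 105, 103 and 98.1. Psmc2 stood at 120.0, 118 and 125 CPM in WT ZT16 and at 115, 95.1 and 94.0 in KO ZT16. In all 3 genes the KO libraries lay below the WT libraries of the same time. In the other roles the values ran from -0.28 (Psma5) to -0.19 (Psma3) in the alpha ring and from -0.29 (Psmb5) to -0.21 (Psmb7) in the beta ring, with Psmc6 at -0.37 among the ATPases. They ran from -0.27 (Psmd5) to -0.03 (Psmd9) in the 19S chaperones, from -0.18 (Psmg1) to 0.12 (Psmg4) in the core chaperones and up to 0.17 (Psme3) in the activators.

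Leaving out 1 library at a time gave 6 or 7 calls for 11 of the 12 libraries, against 6.86% to 10.4% of all genes. Without KO ZT16 replicate 2 there were 37 calls (35 lower, 2 higher), against 42.4% of all genes.

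Between the times in WT, ZT16 against ZT4 shows how the members differ between the dark and the light phase with the clock gene present. Group means of all 14 subunits of the 20S core were higher at ZT16, and none passed the test with all libraries. By edgeR 0 of 47 members were called against 6.5% of all genes, 21 were under an unadjusted p of 0.05 (29.3% of all genes were) and DESeq2 called 3. The median log2 fold change was 0.27 (-0.01 for all genes), with 0.48 in the beta ring, 0.42 in the alpha ring, 0.16 in the ATPases and 0.14 in the non-ATPase subunits. In 29 members, all 14 core subunits among them, every ZT16 library lay above every ZT4 library and in 2 below, against 21.3% of all genes each way.

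Psmb1 stood at 102, 114 and 89.4 CPM in WT ZT4 and at 140.1, 141 and 185 CPM in WT ZT16, a log2 fold change of 0.61 ± 0.25 (adjusted p = 0.137). Psma4 stood at 102, 111 and 94.5 CPM against 139, 143 and 175 CPM, a log2 fold change of 0.58 ± 0.24 (adjusted p = 0.139). Psmb2 stood at 67.9, 71.3 and 58.8 CPM against 81.7, 75.6 and 85.7 CPM, with 0.30 ± 0.094 (adjusted p = 0.0752), the smallest adjusted p of the members. None of these 3 core genes overlapped between the times. The ATPases split into Psmc6 (0.53 ± 0.23) and Psmc3 (0.40 ± 0.16) on 1 side and Psmc5, Psmc2, Psmc1 and Psmc4 (0.17 to 0.12) on the other, and without scaling factors, where the median of all genes shifted to -0.19, these 4 turned to between -0.0649 and -0.00783. Psmd5, a chaperone of the 19S base, was at 0.56 ± 0.18 (adjusted p = 0.0754). Psmd3 was again opposite, with 92.9, 97.6 and 110.0 CPM in WT ZT4 and 85.3, 85.9 and 68.2 CPM in WT ZT16, a log2 fold change of -0.33 ± 0.15 (adjusted p = 0.165). The smallest alpha value was 0.27 (Psma1), and the largest non-ATPase value 0.39 (Psmd6). Psmd9 was at -0.04, the core chaperones lay between 0.13 (Psmg4) and 0.34 (Psmg3), and the activators between -0.14 (Psme3) and 0.40 (Psme2), with Psme1 at 0.09. Of the inducible subunits, Psmb9 was at -0.20, Psmb8 at 0.06 and Psmb10 at 0.34.

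Without KO ZT16 replicate 2, which is not a WT library, the same comparison called 28 members (27 higher and 1 lower) against 33.5% of all genes. These included all 14 core subunits but only 2 of 6 ATPases, Psmc3 and Psmc6, and Psmd3 as the lower one (-0.32 ± 0.093, adjusted p = 0.0174). With offsets for exonic length and GC content, 0 members were called against 10.7% of all genes, and the median was 0.13 instead of 0.27.

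Between the times in KO, 7 members rose at ZT16 and 0 fell, or 14.9% of members against 10.5% of all genes in either direction and 5.27% higher. They were the ATPases Psmc4 (0.32 ± 0.078, adjusted p = 0.0305) and Psmc3 (0.57 ± 0.16, 0.0419), Psmb2 (0.34 ± 0.094, 0.0416), Psmd5 (0.65 ± 0.18, 0.0416), Psme2b (0.46 ± 0.13, 0.0428), Psmd12 (0.31 ± 0.089, 0.0482) and Psme4 (0.24 ± 0.072, 0.0493), by edgeR. The median log2 fold change was 0.37, with 0.69 in the beta ring, 0.45 in the alpha ring and 0.31 in the ATPases. In 32 members every KO ZT16 library lay above every KO ZT4 library and in 2 below, against 21.1% and 22.2% of all genes. Psmc4 was the most even of the 7, with 109, 109 and 112 CPM at ZT16 against 87.2, 89.2 and 88.4 CPM at ZT4. Psmc3 rested on replicate 2, with 255, 162 and 163 CPM against 131, 128 and 132 CPM. Psmd5 stood at 114, 68.6 and 68.2 CPM at ZT16 and at 51.7, 54.7 and 52.7 CPM at ZT4. Replicate 2 was thus the highest library there too. Psmb2 stood at 76.0, 65.4 and 64.4 CPM against 52.9, 55.6 and 53.5 CPM. Psme2b stood at 55.0, 40.3 and 38.4 CPM against 34.4, 31.1 and 31.4 CPM. None of these genes overlapped between the times, nor did Psmd12, whose levels are given above. The largest values, none of them called, were 0.81 (Psmb1) in the beta ring, 0.77 (Psma4) in the alpha ring and 0.71 (Psmc6) in the ATPases, and the most negative was -0.43 (Psmd3). The least were 0.37 (Psma3) in the alpha ring and 0.19 (Psmc1) in the ATPases, and the largest non-ATPase value was 0.53 (Psmd8). Psmd9 was at -0.09, the core chaperones lay between 0.19 (Psmg4) and 0.44 (Psmg2), and Psme3 was at -0.15, Psme1 at 0.03 and Psme2 at 0.24. Of the inducible subunits, Psmb9 was at 0.01, Psmb8 at 0.16 and Psmb10 at 0.43.

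The KO calls depended on single libraries. Without KO ZT16 replicate 2 only Psmc4 was called (0.32 ± 0.077, adjusted p = 0.0242), against 8% of all genes, and the median was 0.20. Without KO ZT16 replicate 4 or 6, 26 and 31 members were called, against 17.6% and 22.2% of all genes. Without KO ZT4 replicate 2, 4 or 6 none was, against 2.5%, 1.11% and 1.3% of all genes. With offsets for length and GC content 15 were called, against 16.7% of all genes, at a median of 0.19.

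**Figure D5:**
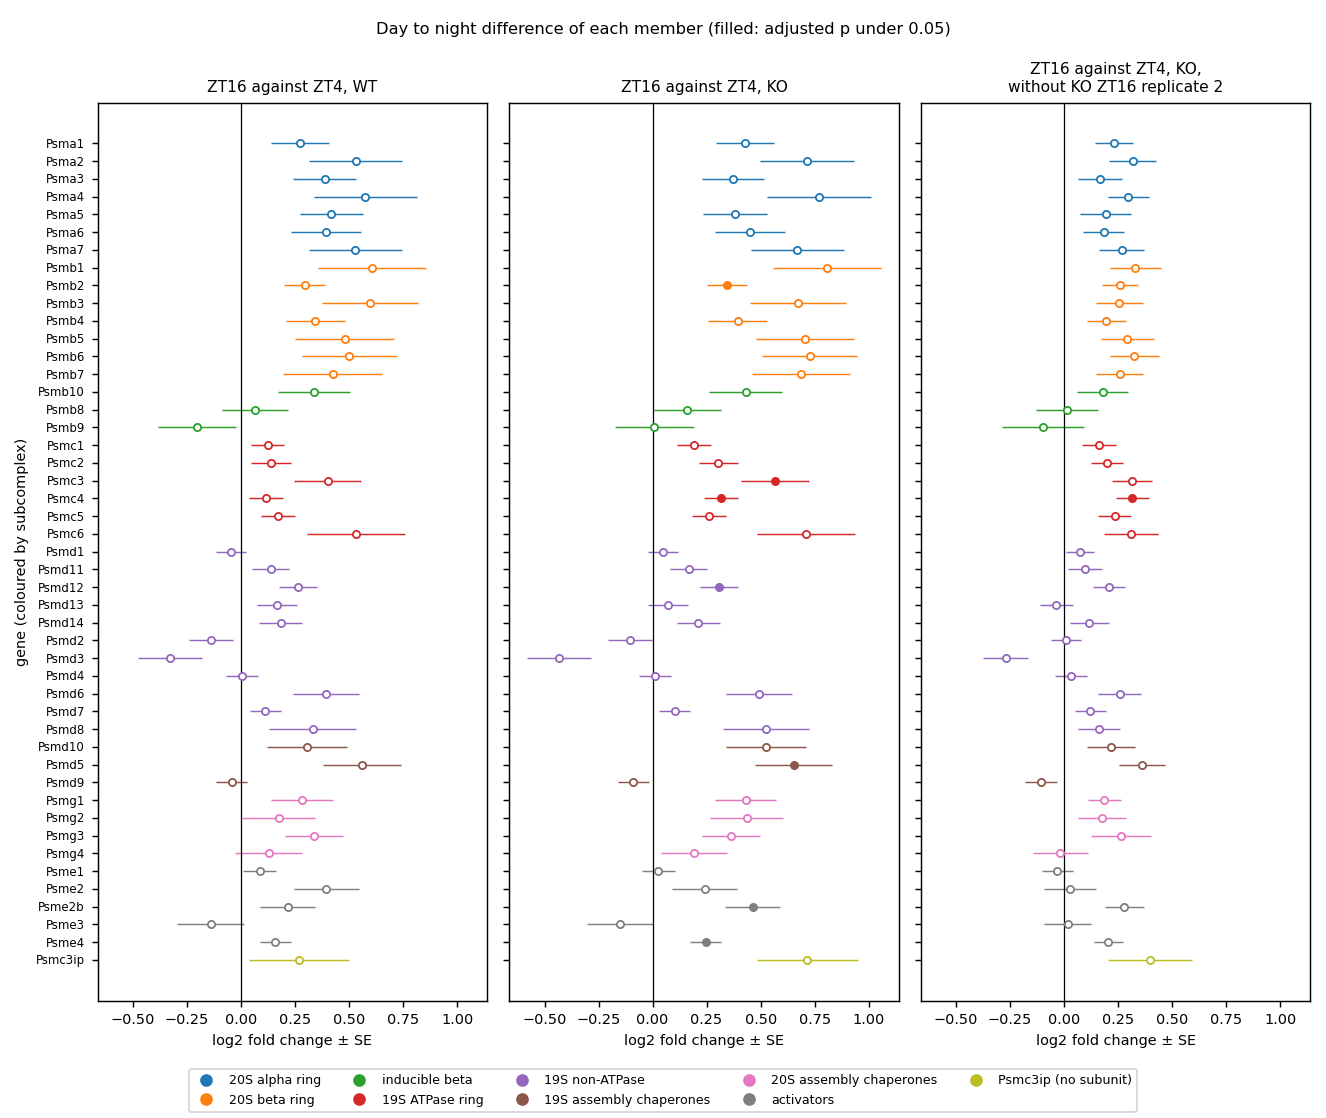
Log2 fold change of ZT16 against ZT4 (± SE) for each member in WT, in KO and in KO without KO ZT16 replicate 2, coloured by subcomplex; filled points have adjusted p under 0.05. Of the 47 points 0, 7 and 1 are filled, and the beta ring medians are 0.48, 0.69 and 0.26.

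The interaction, which tests whether the genotype difference changed between the times, called 0 of 47 members against 0.0186% of all genes. All adjusted p were 1 by edgeR, no member was under an unadjusted p of 0.05 (3.34% of all genes were) and DESeq2 called 0. The median of the members was 0.09 on the log2 scale and turned to -0.09 without KO ZT16 replicate 2, where again 0 were called against 0.0489% of all genes. Among subunits and their helpers the values ran from -0.15 (Psme2) to 0.26 (Psmb7). The SEs of the interaction ran from 0.0985 for Psmd1 to 0.352 for Psmb1 on the log2 scale, so small differences between the times could not be resolved. These comparisons share libraries pairwise, so their values are given side by side and not as separate evidence.

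The inducible subunits, which replace catalytic subunits in immune and interferon-treated cells, were low in kidney and none was called in any comparison with all libraries. Psmb9 stood at 8.66, 8.23 and 6.34 CPM in WT ZT4, 5.04, 6.29 and 5.82 in KO ZT4, 8.01, 5.52 and 6.69 in WT ZT16 and 6.497, 4.55 and 6.25 in KO ZT16. Psmb8 stood at 10.8, 11.6 and 9.13 CPM, 7.10, 9.83 and 9.12, 9.998, 12.0 and 10.9, and 11.6, 8.94 and 8.64 CPM in the same order of groups. Psmb10 stood at 13.4, 12.9 and 10.4 CPM, 11.0, 10.03 and 9.83, 15.5, 14.6 and 16.3, and 18.3, 10.9 and 12.5 CPM. The KO and WT values overlapped at both times except for Psmb9 at ZT4, where all KO libraries were lower. The log2 fold changes of KO against WT at ZT4 were -0.44 ± 0.18 (adjusted p = 0.230) for Psmb9, -0.27 ± 0.15 (0.356) for Psmb8 and -0.25 ± 0.17 (0.440) for Psmb10, by edgeR. At ZT16 they were -0.23 ± 0.18, -0.18 ± 0.15 and -0.15 ± 0.17. Without KO ZT16 replicate 2, all 3 were called lower over both times by edgeR, where 42.4% of all genes were called and 21.7% called lower. The values were -0.39 (adjusted p = 0.0244) for Psmb9, -0.30 (0.0214) for Psmb8 and -0.33 (0.00493) for Psmb10. In that fit Psmb10 was also called lower in KO at ZT16 (-0.41, 0.0181), against 16.5% of all genes. It was called higher at ZT16 in WT (0.34, 0.0215), against 17.5% of all genes.

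Set against the constitutive subunit each replaces, per kb, Psmb8 was 3.79% to 7.88% of Psmb5, Psmb9 1.49% to 3.69% of Psmb6 and Psmb10 15.9% to 23.7% of Psmb7 over the 12 libraries. For Psmb9 the ratio averaged 3.37% ± 0.25 in WT ZT4 and 3.23% ± 0.48 in KO ZT4, and 2.09% ± 0.48 in WT ZT16 and 2.11% ± 0.68 in KO ZT16 (SD, n = 3). In KO ZT16 the ratios of Psmb9 were 1.49%, 2.00% and 2.84%, so replicate 2 held the lowest, and the genotypes overlapped at each time with and without it. Psmb5, Psmb7 and Psmb9 are among the genes with shared sequence, which makes all 3 ratios uncertain. The ratios also depend on the merged exon length. It was 3381 bases for Psmb8 and 3421 for Psmb7, where the longest protein-coding transcripts have 1628 and 1160 bases. For Psmb5 both lengths were 899 bases. The size of the ratios can therefore not be compared between the pairs.

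Over both times all 4 leukocyte and all 6 macrophage markers had log2 fold changes below 0 in KO, and some were called. The 4 leukocyte markers summed to 357 to 473 CPM in WT ZT4 and 267 to 308 in KO ZT4, and to 314 to 380 in WT ZT16 and 236 to 307 in KO ZT16. Of these, 3 of 4 fell over both times by edgeR, against 5.31% of all genes, the class II histocompatibility genes H2-Aa (-0.45 ± 0.10, adjusted p = 0.0172) and H2-Ab1 (-0.33 ± 0.089, 0.0345) and the invariant chain Cd74 (-0.40 ± 0.095, 0.0193). The 6 macrophage markers summed to 119.6 to 155 CPM in WT ZT4, 100.5 to 109 in KO ZT4, 118 to 129 in WT ZT16 and 95.6 to 109 in KO ZT16, and 2 of 6 fell over both times, Csf1r (-0.33 ± 0.056, 0.00247) and C1qc (-0.39 ± 0.105, 0.0332). All 5 calls were made again without KO ZT16 replicate 2, while leaving out 1 library at a time lost that of C1qc in 8 of 12 fits, that of H2-Ab1 in 6 and that of Cd74 in 1, the fit without KO ZT4 replicate 2. The 3 T cell, 3 B cell and 2 neutrophil markers summed to at most 3.37 CPM in any library, with 0 called between the genotypes. Over both times 2 of 3 T cell, 3 of 3 B cell and 2 of 2 neutrophil markers had log2 fold changes below 0. At ZT4, 2 of 3 T cell and 3 of 3 B cell markers were below 0, and 1 of 2 neutrophil markers was above 0. At ZT16, 2 of 3 B cell and 2 of 2 neutrophil markers were below 0, and 2 of 3 T cell markers were above 0. The T cell sum at ZT16 was 1.91 to 2.65 CPM in WT and 2.29 to 2.89 in KO. No marker in these lists was at 0 in all libraries. The part of immune cells in the values of the inducible subunits was not tested.

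Genes that work with the proteasome but lie outside its prefixes were followed as lists. Of 9 partners tested, 2 fell over both times (22.2%, against 5.31% of all genes), the proteasome-bound thioredoxin-like Txnl1 (-0.24 ± 0.066, adjusted p = 0.0365) and the deubiquitinase Usp14 (-0.20 ± 0.054, 0.0366). None of the 9 was called at either time alone or between the times, and their median was -0.08 over both times, with 9 of 9 below 0. The values without KO ZT16 replicate 2 were -0.28 (adjusted p = 0.00189) for Txnl1 and -0.19 (0.00989) for Usp14, but other single libraries lost these calls in 8 and 10 of 12 fits. Of 8 genes of NRF1 and NRF2 control, 1 rose over both times against 6.04% of all genes, Nfe2l1 (0.30 ± 0.087, adjusted p = 0.0426). Its levels were 134, 123 and 149 CPM in WT ZT4, 172, 169 and 170.1 in KO ZT4, 127, 130.3 and 112 in WT ZT16, and 118, 166 and 162 in KO ZT16. KO libraries were above all WT libraries of their time except KO ZT16 replicate 2. Without it the value was 0.37 ± 0.057 (adjusted p = 0.000279), while leaving out other single libraries lost the call in 10 of 12 fits. In the same list the small MAF factor Maff fell in KO at ZT16 (-1.27 ± 0.28, 0.0243) and Mafk fell at ZT16 in KO (-0.75 ± 0.14, 0.0133). These were -1.37 (0.00552) and -0.61 (0.00799) without KO ZT16 replicate 2. The call of Maff, at 1.097 to 5.03 CPM at ZT16, was lost without WT ZT16 replicate 5 or KO ZT16 replicate 4 or 6, and that of Mafk without KO ZT4 replicate 4 or 6.

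Among 13 genes of ubiquitin, its activation and substrate delivery none was called between the genotypes. Between the times in KO, the shuttle factor Ubqln2 fell (-0.80 ± 0.15, adjusted p = 0.012) and Ufd1, a cofactor of the unfoldase VCP, rose (0.48 ± 0.13, 0.0424), or 2 of 13 against 10.5% of all genes. Ubqln2 was at -0.63 (0.00368) without KO ZT16 replicate 2, and Ufd1, at 0.29 (0.0691), was then not called. The call of Ufd1 was also lost without KO ZT4 replicate 2, 4 or 6, and that of Ubqln2 without KO ZT4 replicate 4 or 6. Among 10 genes of antigen processing, 1 was called between the genotypes over both times against 11.4% of all genes, the interferon regulatory factor Irf1 (-0.30 ± 0.082, 0.0354), and none in the other comparisons. It was at -0.34 (0.00303) without KO ZT16 replicate 2, and other single libraries lost the call in 9 of 12 fits.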

How the data were processed

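Poly(A) mRNA of whole mouse kidney was sequenced from stranded TruSeq libraries, per the labels. The authors deposited raw read counts per Ensembl gene for each of 12 libraries, and the submitters' processing notes name cutadapt 1.2.1, TopHat2 2.0.9, HTSeq 0.5.4p3, R 3.1.1, edgeR, limma and GRCm38. How HTSeq treated strand and overlapping genes, and with which annotation, is not given in the sources used here. Lines that name no gene were kept out of library sizes: no feature (3.50% to 5.96%), ambiguous (0.411% to 0.534%) and not unique (30.8% to 43.0%). GENCODE M21 named 37607 of 38924 IDs.

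Counts of 16150 genes were fitted with edgeR 4.0.16 (TMM scaling, quasi-likelihood test, R 4.3.3) over all 4 groups of 3, with 8 residual degrees of freedom, and p-values were adjusted over all genes by Benjamini-Hochberg; calls have adjusted p under 0.05. CPM values use the TMM-scaled library sizes. Replicates differed beyond sampling noise (chi-square per degree of freedom 4.71 or more), so none was counted as a duplicate. Named in each comparison are up to 6 called members of smallest adjusted p, the members of largest and smallest log2 fold change in each subcomplex, the inducible subunits, Psme1 and Psme2, and up to 3 called genes of each other list. Library values are given for the called members and for the extremes the text turns on; for the interaction only the overall extremes are named, and other members named beside them were chosen after their values were seen. Members and gene lists were chosen with earlier results of these data known. The test code was run on simulated counts, drawn independently for each gene and without an outlying library. That run cannot show how the tests behave with a library such as KO ZT16 replicate 2. Alternatives were other scalings and filters, DESeq2 1.42.0, limma-voom 3.58.1, length and GC offsets, a replicate block, only the libraries compared, a stricter threshold and leaving out each library. Unscaled totals and leaving out both high-mitochondrial libraries were added after seeing the data.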

Additional observations from a re-analysis of the deposited data

How the results depend on the processing

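With 3 libraries a group the precision is limited, and leaving out KO ZT16 replicate 2 moved the counts of calls, the log2 fold changes and the number of genes tested (16150 to 16360). Members called at ZT4, ZT16 and over both times (3, 0 and 7 by edgeR) numbered 6, 2 and 11 with DESeq2, against 6.46%, 6.24% and 15.8% of all genes, and 5, 1 and 11 with length and GC offsets, against 6.27%, 6.25% and 15.5%. At ZT4, 5 were called with RLE or upper-quartile scaling (3.3% and 3.29% of all genes) and 28 with only the 6 libraries compared (18.2%). Between the times, WT (0) and KO (7) gave 3 and 29 with DESeq2 (13.3% and 22.7% of all genes) and 21 and 0 with only the 6 libraries (22.8% and 0.227%). KO gave 15 with length and GC offsets (16.7%) and 11 without a filter (7.22%). At adjusted p under 0.01 the counts were 0 at ZT4, 4 over both times and 0 in KO between the times, against 1.28%, 4.56% and 0.842% of all genes. Leaving out both libraries of high mitochondrial share gave 28, 28, 36, 21 and 13 (genotype at ZT4, at ZT16 and over both times, then WT and KO between the times), against 21.5%, 21.3%, 37.9%, 22% and 12.7% of all genes; this was chosen after seeing the data. So were unscaled totals, which gave 0 at ZT4, 1 (higher) over both times and 0 in KO between the times. The shares of all genes were 2.45%, 12.4% and 6.53%. With unscaled totals the median of all genes shifted to 0.18 at ZT4 and that of the members to -0.10. The cause of these differences was not tested.

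Leaving out 1 library at a time gave 0 to 24 calls at ZT4, 0 to 33 at ZT16, 6 to 37 over both times, 0 to 28 between the times in WT, 0 to 31 in KO and 0 for the interaction, each maximum but that in KO without KO ZT16 replicate 2. In the fits of these maxima (24, 33, 37, 28 and 31), 15.3%, 31.2%, 42.4%, 33.5% and 22.2% of all genes were called.

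Some uncalled values changed sign, and no called value reversed. Most were small, but the main values of Psme2 (0.24) and Psmc1 (0.19) between the times in KO also turned. Without scaling factors, the turned values were Psmd9 0.172 and Psme2 0.14 between the genotypes at ZT4, Psmd9 0.087, Psmg1 0.0038 and Psmb7 0.00915 between the genotypes at ZT16, Psmd9 0.13 and Psme2 0.029 between the genotypes over both times, Psmc4 -0.0649, Psmc5 -0.00783, Psmg4 -0.0502, Psme1 -0.0922, Psmb8 -0.114, Psmc1 -0.0571 and Psmc2 -0.0421 between the times in WT and Psmc1 -0.0299, Psmg4 -0.0557, Psmb9 -0.226, Psme1 -0.2, Psme2 -0.00585 and Psmb8 -0.0797 between the times in KO. With length and GC offsets, the turned values were Psme2 0.00607 between the genotypes at ZT4, Psmd9 0.131, Psmg4 -0.132 and Psmc1 -0.00706 between the times in WT and Psmd9 0.114 and Psmg4 -0.0691 between the times in KO. Without both libraries of high mitochondrial share, the turned values were Psmg4 -0.0945 between the genotypes at ZT16, Psmg4 -0.00142 between the genotypes over both times and Psmg4 -0.0176, Psme3 0.0164, Psmb9 -0.101 and Psme1 -0.0316 between the times in KO. With the replicate block and these offsets, values turned sign to Psmd9 0.131, Psmg4 -0.137 and Psmc1 -0.00711 between the times in WT, and to Psmd9 0.106 and Psmg4 -0.0693 between the times in KO. With upper-quartile scaling, values turned sign to Psmb9 -0.0231 and Psme1 -0.00362 between the times in KO. With a minimum of 5 CPM, values turned sign to Psmb9 -0.0121 between the times in KO. With limma voom, values turned sign to Psmb9 -0.0144 between the times in KO. With the replicate block, values turned sign to Psmb9 -0.00159 between the times in KO. Leaving out 1 library gave, between the genotypes at ZT16, Psma4 from -0.616 to 0.0609, Psmb7 from -0.517 to 0.091, Psmg1 from -0.358 to 0.00975 and Psmg4 from -0.0634 to 0.241. Leaving out 1 library gave, between the times in KO, Psmb9 from -0.0996 to 0.157, Psme1 from -0.0314 to 0.0592, Psme3 from -0.254 to 0.0166 and Psmg4 from -0.0174 to 0.283. Leaving out 1 library gave, between the times in WT, Psmb8 from -0.0279 to 0.143. Leaving out 1 library gave, between the genotypes at ZT4, Psmd9 from -0.0236 to 0.0181 and Psme2 from -0.0968 to 0.0515.

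Replicate numbers did not pair the libraries: deviations of same-numbered libraries correlated between -0.266 and 0.0542, and 1 of 6 correlated best with its own number. With the replicate block, 4 members were called over both times and 0 in KO between the times (6.52% and 1.17% of all genes), and with the replicate block plus length and GC offsets 8 and 0 (11.3% and 7.79%). WT between the times had 0 calls under both, against 1.42% and 5.56% of all genes. The interaction also had 0 under both, against 0.00619% and 0.0248% of all genes.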
